A study of Homo sapiens with 4 samples.

Results

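The genes described here are 10 genes that write, keep, oxidise or remove DNA methylation: DNMT1, DNMT3A, DNMT3B, TET1, TET2, TET3, UHRF1, UHRF2, HELLS and TDG. Every probe set whose annotation names exactly 1 of these genes was taken, which gave 33 of the 49395 probe sets on the array, and all 10 genes had at least 1. They were compared between 2 arrays of MDA-MB-231 cells with an integrated control shRNA and 2 arrays of cells with an integrated shRNA against ELK3 (ELK3 KD cells), an ETS-domain transcription factor. MDA-MB-231 is a human triple-negative breast cancer line. Per the methods of the study, both groups carried a GFP and luciferase reporter, had been made stable by retroviral infection, and were grown in DMEM with fetal bovine serum. The methods describe several lines for each shRNA, whereas the labels number 2 biological repeats in each group without naming a line. The spread behind each p-value is thus that between 2 arrays of a group, which may be technical. With so few arrays, the smallest p that relabelling them exactly can give is 0.33 in a two-sided permutation test. The tests below are therefore from limma, a linear model that pools the spread over all probe sets.

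Methylation of cytosine in CpG dinucleotides is copied at replication by DNMT1, which UHRF1 recruits to the half-methylated DNA behind the fork, and HELLS remodels nucleosomes so that compacted DNA can be methylated. DNMT3A and DNMT3B place methyl groups on unmethylated sites. The TET enzymes oxidise 5-methylcytosine, and the glycosylase TDG cuts out its further oxidised forms so that base excision repair can restore an unmethylated cytosine. Promoter methylation keeps many genes silent in tumour cells, and the study measured the methylation of the GATA3 promoter in cells of the same kind. The arrays measured RNA levels only.

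The CpG dinucleotides that these enzymes act on are also present around their own start sites, and these windows are shown for the genes with the clearest rises and falls among the maintenance, oxidation and excision enzymes. Each window holds 250 bases before and 50 bases after the start of the gene in RefSeq (GRCh38.p14), read 5′ to 3′ on the strand of the gene, with every CG in capitals: TET1 at chr10:68560087-68560386 and TDG at chr12:103965622-103965921 on the plus strand, DNMT1 at chr19:10194904-10195203 on the minus strand and HELLS at chr10:94545538-94545837 on the plus strand.
TET1: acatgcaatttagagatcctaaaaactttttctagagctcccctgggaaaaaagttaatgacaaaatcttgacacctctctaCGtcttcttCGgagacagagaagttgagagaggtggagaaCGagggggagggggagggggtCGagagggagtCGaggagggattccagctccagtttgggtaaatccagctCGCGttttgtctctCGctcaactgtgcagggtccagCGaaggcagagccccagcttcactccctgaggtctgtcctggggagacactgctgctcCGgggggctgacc
TDG: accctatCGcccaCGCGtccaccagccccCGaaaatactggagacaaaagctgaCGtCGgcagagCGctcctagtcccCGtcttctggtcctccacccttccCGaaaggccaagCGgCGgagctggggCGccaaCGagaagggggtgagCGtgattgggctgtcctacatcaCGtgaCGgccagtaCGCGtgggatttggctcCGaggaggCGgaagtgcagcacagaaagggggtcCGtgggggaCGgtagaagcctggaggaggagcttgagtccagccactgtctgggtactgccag
DNMT1: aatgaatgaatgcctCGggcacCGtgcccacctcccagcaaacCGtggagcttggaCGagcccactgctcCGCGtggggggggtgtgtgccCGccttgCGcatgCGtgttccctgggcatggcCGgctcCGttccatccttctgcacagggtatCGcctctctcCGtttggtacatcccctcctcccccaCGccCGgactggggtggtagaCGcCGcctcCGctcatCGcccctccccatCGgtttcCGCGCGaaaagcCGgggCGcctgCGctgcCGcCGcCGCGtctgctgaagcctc
HELLS: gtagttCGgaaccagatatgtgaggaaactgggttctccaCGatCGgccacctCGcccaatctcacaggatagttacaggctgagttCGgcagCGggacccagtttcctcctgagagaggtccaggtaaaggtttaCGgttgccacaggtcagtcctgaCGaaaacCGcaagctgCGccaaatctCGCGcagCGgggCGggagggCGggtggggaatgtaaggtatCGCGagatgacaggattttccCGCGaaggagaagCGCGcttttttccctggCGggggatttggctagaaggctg
The TET1 window held 10 CpG dinucleotides, the TDG window 22, the HELLS window 22 and the DNMT1 window 30, against a median of 14 over 34943 windows of the same length. At least as many as in the DNMT1 window were found in 22.4% of all windows, and at least as many as in the TET1 window in 56.3%. Letters of known motifs were searched on both strands in all 21 RefSeq windows of the 10 genes. For 7 genes these include the start of the gene, whereas the windows of DNMT3B, TET3 and UHRF1 lie at later start sites, 17467, 1279 and 6421 bases or more inside the gene, so the gene starts of these were not searched. The letters CCGGAAG, 1 form of the ETS motif, were in 0 of the 21 windows and in 10.2% of all windows. Other forms were not searched, and some of the 21 windows overlap, so this cannot show that the genes lack ETS sites. The motifs TTCCCGC and TTGGCGC of E2F factors, which activate genes of S phase, were in 5 of 21 windows and, together, in 9.22% of all windows. These were the start windows of UHRF2, HELLS and TDG and later windows of UHRF1 and TET3. Both motifs contain a CG and the windows compared were not matched for CpG count, so no enrichment can be read from these shares. The HELLS window held 1 match of each, at 7 and 76 bases before the start site. The TDG window held 1 match of TTGGCGC, 123 bases before it. The TET1 and DNMT1 windows held none of these letters. Other forms of the E2F motif were not searched, so this says nothing of those forms, of other positions or of the factors themselves. Whether any of these CpG sites were methylated was not measured on the arrays.

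The arrays lay on 1 scale, with median log2 values of 6.23 to 6.27, and replicates were close, with an SD of differences over probe sets of 0.23 between the control arrays and 0.16 between the ELK3 KD arrays, against 0.96 to 0.97 between groups. ELK3 itself read 10.85 and 10.82 in control arrays and 8.34 and 8.33 in ELK3 KD arrays. Other genes also set the ELK3 KD arrays apart. All 8 listed markers of MDA-MB-231 cells were lower. Their mean level went from 11.29 and 11.30 in control arrays to 7.66 and 7.78 in ELK3 KD arrays. NT5E (-8.24) and AXL (-7.74) differed most, whereas VIM and MSN still had means of 12.49 and 9.69 in ELK3 KD arrays. Of 10 genes listed as markers low in MDA-MB-231, 3 were higher, 3 were lower and 4 did not pass, with FOXA1 at 4.10 and CLDN4 at -2.13. Not all of them were low in the control arrays, where KRT18, KRT8 and CLDN4 had means of 11.21, 10.71 and 8.92. Markers of HEK293, the line in which retroviruses are often packaged, were higher for 10 of 18 genes and lower for 1. The other 7 did not pass, NEFM and INA among them. In limma at an adjusted p under 0.05, 26.0% of all genes were higher and 23.5% lower. Mean levels of the 18 genes were 5.79 and 5.90 against 7.72 and 7.74. The largest differences were at the neurofilament gene NEFL (7.58) and SOX11 (5.81). Of the renal factors on that list, PAX8 was the gene called lower (-1.15) and PAX2 was at 4.59 and 4.58. CDKN2A lies in chromosome band 9p21, which is known to be deleted in MDA-MB-231. It read 5.10 and 4.61 in control arrays and 11.33 and 11.43 in ELK3 KD arrays, and its neighbours KLHL9 and CDKN2B differed by 6.61 and 3.94. MTAP was higher at 5 of 6 probe sets and lower at its brightest (-0.45). These differences move with the groups in every array, so a response to ELK3 loss and a difference between the cells themselves cannot be told apart for any gene below. The deposited values have no detection calls. Background was therefore read from 359 probe sets of olfactory receptor genes, which are silent in most tissues, and their 95th percentile, 5.70 on the log2 scale, is called the background guide here.

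In ELK3 KD cells 14 of the 33 probe sets were higher, 7 were lower and 12 did not pass, at an adjusted p under 0.05 from limma. Over all 49293 probe sets tested, 48.3% were called, 24.3% higher and 24.0% lower, so the share called lower among the 33 lay near that of all probe sets. The 2 groups did not overlap for 24 of the 33, where 75.5% of all probe sets did not overlap, and the difference was more than 2-fold for 12 of the 33, against 16.1% of all. DNMT3B alone supplied 11 of the 33 probe sets, 8 of them called higher, so these counts are not of independent members. Both group means lay below the background guide at 9 of the 33. Read from its brightest probe set, each gene gave 1 value. TET1, TDG, DNMT3B, TET2 and UHRF2 were higher, DNMT1 and HELLS lower, and TET3, DNMT3A and UHRF1 did not pass. That is 5 of 10 genes higher and 2 lower, against 26.0% and 23.5% of 18132 genes. Levels of different probe sets cannot be set against each other on an array, so the genes are ordered here only by their differences.

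**Figure D1:**
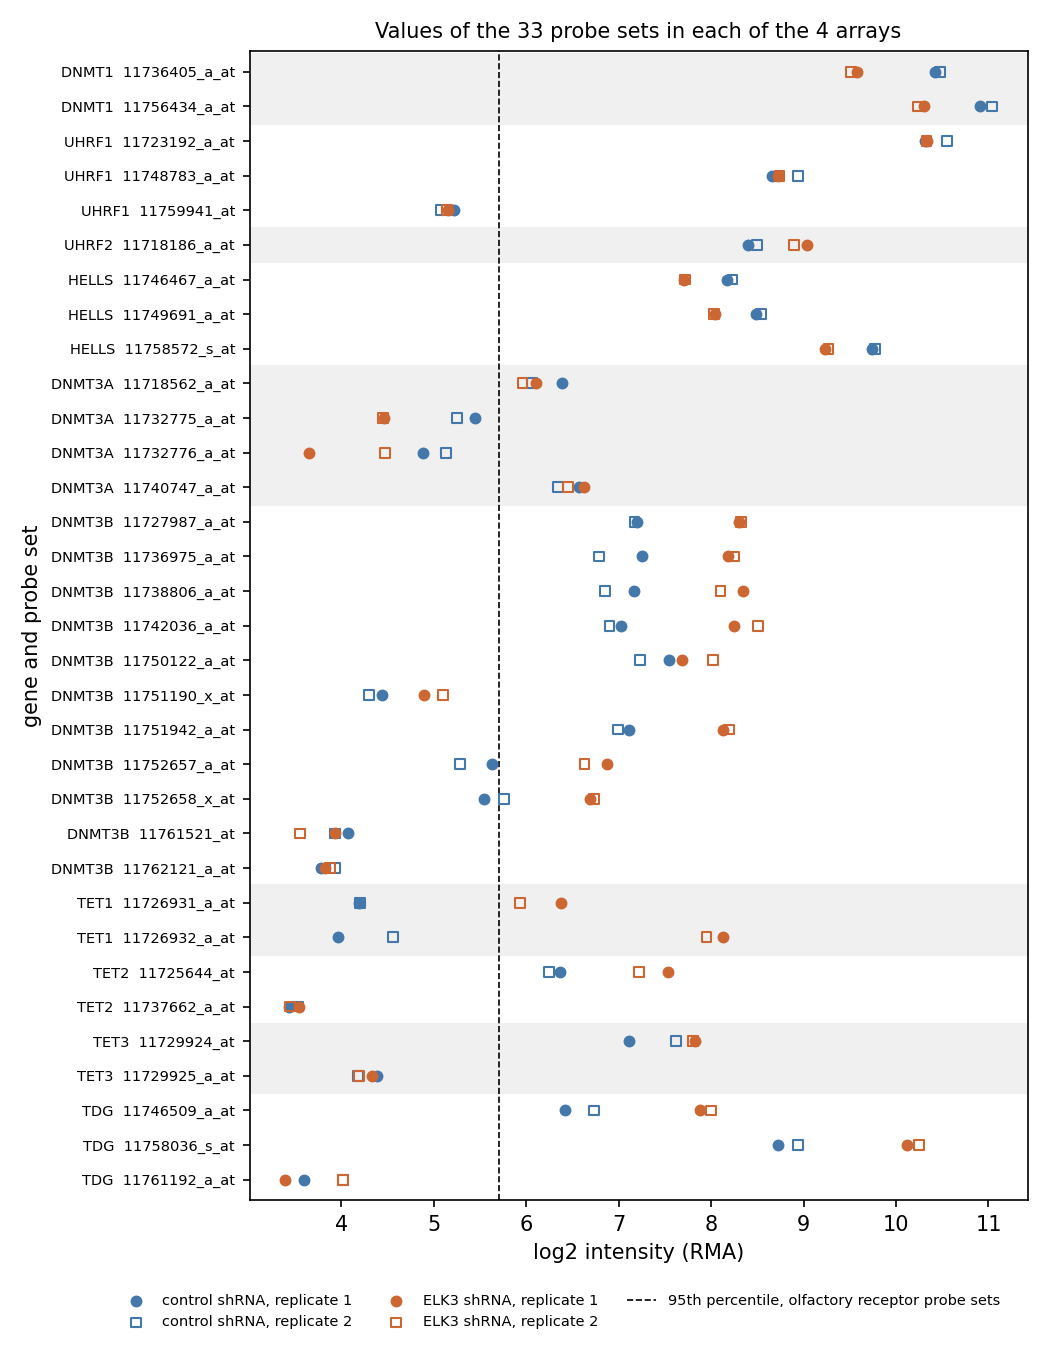
Log2 intensities (horizontal axis) of all 33 probe sets of the 10 genes (rows) in the 2 control shRNA arrays (blue) and the 2 ELK3 shRNA arrays (orange), with filled circles for replicate 1 and open squares for replicate 2. The dashed line is the background guide at 5.70; both TET1 probe sets lie left of it in control arrays and right of it in ELK3 shRNA arrays, whereas both DNMT1 probe sets lie above 9 in all 4 arrays.

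The TET dioxygenases TET1 and TET2 were higher in ELK3 KD cells and TET3 did not pass, while differences between the genes were not tested. TET1, which oxidises 5-methylcytosine and binds unmethylated CpG DNA through a CXXC domain, had the largest difference of the 10 genes. Its brighter probe set (11726932_a_at) read 3.96 and 4.56 in control arrays and 8.13 and 7.95 in ELK3 KD arrays. Both control values lay below the background guide and both ELK3 KD values well above it. The log2 difference was 3.78 (standard error 0.21, 95% interval 3.24 to 4.32), a 13.7-fold rise with adjusted p = 0.000201 from limma. The other TET1 probe set (11726931_a_at) read 4.19 and 4.20 against 6.38 and 5.93, which is 1.96 apart (standard error 0.16, adjusted p = 0.000599 from limma). The probe sets thus agreed in direction, and they differed in size by more than the standard errors of either. Since control values were at background, the size of the rise is not settled.
TET2, which lacks the CXXC domain of its relatives, was also higher at the probe set above background. It read 6.37 and 6.25 in control arrays and 7.53 and 7.22 in ELK3 KD arrays (11725644_at), a log2 difference of 1.06 (standard error 0.13, limma adjusted p = 0.00206). The second TET2 probe set lay between 3.43 and 3.54 in all arrays, within background, and could not show a change. For TET3, which is known for oxidising the paternal genome in the zygote, the brighter probe set read 7.11 and 7.62 in control arrays and 7.82 and 7.80 in ELK3 KD arrays. The groups did not overlap, but control replicate 1 stood apart from the other 3 arrays, and the difference of 0.44 did not pass (95% interval -0.02 to 0.90, adjusted p = 0.0987 from limma). Without control replicate 2 it was 0.70 and passed (adjusted p = 0.0113 from limma), and without control replicate 1 it was 0.19 and did not (adjusted p = 0.14). The other TET3 probe set had means of 4.28 and 4.26, within background.

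TDG, the glycosylase that acts after the TET enzymes, was higher at both probe sets above background. The brightest (11758036_s_at) read 8.72 and 8.94 in control arrays and 10.12 and 10.25 in ELK3 KD arrays, a log2 difference of 1.35 (standard error 0.11, adjusted p = 0.000586 from limma). All 4 values lay far above background, so the 2.56-fold rise was not limited by it. The suffix _s_at marks probes that can match transcripts of more than 1 gene. The second probe set (11746509_a_at), whose probes are designed for transcripts of 1 gene, read 6.42 and 6.73 against 7.88 and 8.0 and gave nearly the same difference, 1.36 (adjusted p = 0.000942 from limma). The third probe set ranged from 3.39 to 4.02, below the guide in all arrays, with a difference of -0.11 (adjusted p = 0.757 from limma).

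Of the de novo methyltransferases, DNMT3B was higher in ELK3 KD cells and DNMT3A did not pass at its brightest probe set. For ELK3 KD cells the study describes high TET1 expression, and DNMT3A and DNMT3B at levels like those of controls. The assay is not named in the text used here, and that account of DNMT3B differs from these array values. DNMT3B was covered by 11 probe sets, of which ELK3 KD cells had 8 higher and 0 lower (limma, where 3 of the 11 did not pass and their unadjusted p was 0.0371, 0.135 and 0.97). The brightest (11727987_a_at) read 7.20 and 7.17 in control arrays and 8.30 and 8.32 in ELK3 KD arrays. Replicates differed by 0.03 or less at this probe set, and the groups stood 1.13 apart (standard error 0.08, 95% interval 0.93 to 1.32, adjusted p = 0.000347 from limma), a 2.18-fold rise. Of the other 7 called probe sets, 6 differed by 1.06 to 1.42. The widest of these, 11742036_a_at, read 7.03 and 6.90 against 8.25 and 8.51, and the narrowest, 11752658_x_at, read 5.54 and 5.76 against 6.69 and 6.73. Between them lay 11751942_a_at at 1.10, 11736975_a_at at 1.19, 11738806_a_at at 1.21 and 11752657_a_at at 1.29. The control means of 11752657_a_at (5.45) and 11752658_x_at (5.65) lay below the background guide, so the size of these differences is not settled. The seventh, 11751190_x_at, had means of 4.37 and 5.0 within background and a difference of 0.63, a call lost without knockdown replicate 2 (adjusted p = 0.0612 from limma). Probe set 11750122_a_at read 7.54 and 7.23 against 7.68 and 8.02, so it lay above background, and its difference of 0.46 did not pass (95% interval 0.04 to 0.88, adjusted p = 0.0709 from limma). The remaining DNMT3B probe sets, 11761521_at and 11762121_a_at, had all group means at or below 4.0. Probe sets of 1 gene share its transcripts and are not independent of each other.
DNMT3A, the other de novo enzyme, gave mixed values. Its brightest probe set (11740747_a_at) read 6.57 and 6.34 in control arrays and 6.62 and 6.45 in ELK3 KD arrays, and the groups overlapped. The difference was 0.08, with a 95% interval of -0.22 to 0.38 (adjusted p = 0.604 from limma). Probe set 11718562_a_at, with means of 6.23 and 6.03, did not pass either, at -0.20 with an interval of -0.54 to 0.15. The remaining DNMT3A probe sets were both lower, and both lay below the background guide in both groups. Of these, 11732775_a_at read 5.44 and 5.25 against 4.46 and 4.45, a difference of -0.89 (adjusted p = 0.00153 from limma). The other, 11732776_a_at, read 4.88 and 5.13 against 3.65 and 4.47, and its call (adjusted p = 0.0416 from limma) was lost without control replicate 1, control replicate 2 or knockdown replicate 1 (adjusted p = 0.137, 0.203 and 0.0885). When a gene was read as the mean of all its probe sets, DNMT3A turned from 0.08 to -0.49 and passed (adjusted p = 0.00553 from limma), so its direction rests on which probe sets are read. DNMT3L, the cofactor of the de novo enzymes in germ cells, was below the guide in both groups (5.49 and 5.38).

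**Figure D2:**
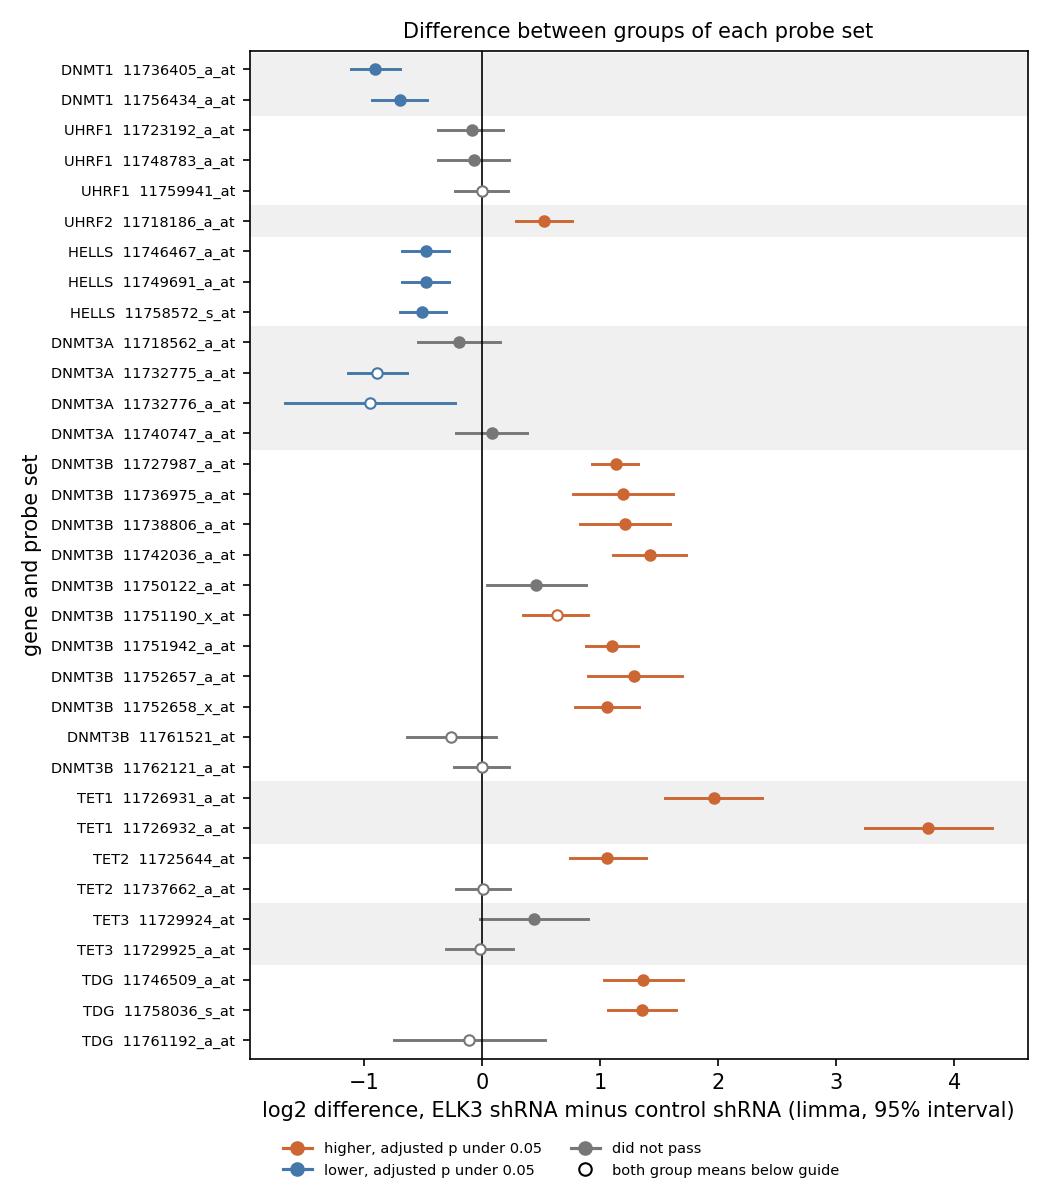
Log2 differences, ELK3 shRNA minus control shRNA (horizontal axis), with 95% intervals from limma for each of the 33 probe sets (rows). Orange marks the 14 called higher, blue the 7 called lower and grey the 12 that did not pass, and open points have both group means below the background guide; the 2 TET1 probe sets lie farthest right, at 1.96 and 3.78.

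Of the maintenance genes, DNMT1 and HELLS were lower and UHRF1 did not pass, while UHRF2, grouped here with UHRF1 as its relative, was higher. DNMT1, the enzyme that copies methylation at the replication fork, was lower at both probe sets. The brighter (11756434_a_at) read 10.91 and 11.04 in control arrays and 10.30 and 10.24 in ELK3 KD arrays. The level fell by 0.70 on the log2 scale (standard error 0.09, limma adjusted p = 0.00239). The other (11736405_a_at) read 10.42 and 10.48 against 9.58 and 9.51, a difference of -0.91 (standard error 0.08, adjusted p = 0.000784 from limma). Both were bright in all 4 arrays, and the differences correspond to a 1.62-fold and a 1.87-fold lower level.
HELLS, the remodelling ATPase also known as LSH, was lower at all 3 probe sets by close amounts, -0.51, -0.48 and -0.48. The brightest (11758572_s_at) read 9.74 and 9.77 in control arrays and 9.23 and 9.27 in ELK3 KD arrays (standard error 0.08, adjusted p = 0.00459 from limma). Without knockdown replicate 1 no HELLS probe set passed (adjusted p = 0.0541 to 0.0578 from limma, at differences of -0.48 to -0.49). Without knockdown replicate 2 the dimmer pair did not pass (adjusted p = 0.0552 and 0.0579). In the fit over genes, HELLS passed in both cases (adjusted p = 0.0458 and 0.0383 from limma). The differences themselves hardly moved. With knockdown replicate 1 left out, 3 of the 33 probe sets were called lower in place of 7.
UHRF1, which reads half-methylated DNA and brings DNMT1 to it, showed no difference beyond the spread of the arrays. Its brightest probe set (11723192_a_at) read 10.31 and 10.55 in control arrays and 10.34 and 10.33 in ELK3 KD arrays, so both ELK3 KD values fell between the control values. The difference was -0.09 with a 95% interval of -0.37 to 0.18 (adjusted p = 0.509 from limma), and the second probe set gave -0.07 with an interval of -0.37 to 0.23. The third, 11759941_at, lay below the background guide, with means of 5.15 and 5.15. A change as large as that of DNMT1 thus lay outside the intervals of UHRF1. UHRF2, a relative of UHRF1 with a similar domain layout, had 1 probe set, which read 8.40 and 8.50 in control arrays and 9.04 and 8.90 in ELK3 KD arrays. It rose by 0.52 (standard error 0.09, adjusted p = 0.00761 from limma), a call that was lost without knockdown replicate 1 (0.45, adjusted p = 0.0714).
DNMT1, UHRF1 and HELLS are known to be expressed most in dividing cells. Among 33 measured S-phase genes, 17 were called higher, 3 were called lower and 13 did not pass, where 26.0% of all genes were higher and 23.5% lower. Their median difference was 0.29, against -0.05 over all genes. The catalytic subunit of DNA polymerase alpha, POLA1, went from a mean of 9.10 to 10.76, the GINS subunit GINS4 from 8.22 to 9.10 and PCNA, the sliding clamp that also docks DNMT1, from 11.54 to 12.40. RRM2, the small subunit of ribonucleotide reductase, went from 11.38 to 10.42. Their part in the differences of DNMT1 and HELLS was not tested.

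The other genes around the pathway were read from lists, with 1 value a gene from the brightest probe set, and each count stands against the 26.0% of all genes called higher and 23.5% called lower. Of 13 measured partners of the TET enzymes and enzymes of their cofactors, 9 were higher, 4 were lower and 0 did not pass (limma, adjusted p under 0.05), with a median difference of 0.53. WT1, a zinc finger factor that recruits TET2, read 4.42 and 4.50 in control arrays and 7.69 and 7.69 in ELK3 KD arrays. CXXC5 and CXXC4, small proteins with the CXXC domain that TET2 lacks, went from 7.86 to 9.29 and from 5.18 to 6.63. ZFP36L1, an RNA-binding protein that promotes mRNA decay and is counted on this list, went from 11.25 to 9.39. Its link to the TET enzymes was not tested. The control means of WT1 and CXXC4 lay below the background guide.
Of 17 genes of base excision repair and GADD45 proteins, 8 were higher and 2 lower (all genes 26.0% and 23.5%), with a median of 0.25. NTHL1, a glycosylase for oxidised pyrimidines, rose by 1.03 on the log2 scale and POLB, the polymerase that fills the gap after TDG has cut, by 0.97. NEIL2, another glycosylase, fell by 1.54, and GADD45A, a stress protein that has been linked to active demethylation, fell by 1.13.
Readers of methylated DNA and related enzymes were split, with 4 of 11 higher, 4 lower and a median of -0.17. ZBTB38, a zinc finger protein that binds methylated CpG, read 11.52 and 11.47 in control arrays and 9.08 and 8.91 in ELK3 KD arrays. ZBTB33 (Kaiso), of the same family, went from 7.95 to 9.26, the histone methyltransferase SETDB1 from 7.13 to 7.66, and ZBTB4 from 9.11 to 8.59. The cofactors and recruiters of the methyltransferases were also split, with 4 of 13 higher, 4 lower and a median of -0.04. TRDMT1, once named DNMT2 and a methyltransferase of tRNA, fell by 1.33. CDCA7L, a relative of the HELLS activator CDCA7, fell by 1.12, while CDCA7 itself was at 10.59 and 10.55. The heterochromatin protein gene CBX5 rose by 0.99 and the corepressor gene TRIM28 by 0.87.
In the methyl donor cycle, which supplies S-adenosylmethionine, 4 of 14 genes were higher and 3 lower, shares near the 26.0% and 23.5% of all genes, with a median of 0.03. NNMT, which methylates nicotinamide and so consumes the methyl donor, read 10.42 and 9.48 in control arrays and 4.0 and 4.39 in ELK3 KD arrays, below the background guide. SHMT1, which moves single-carbon units onto folate, rose by 0.48. AHCYL2 and AHCYL1, which resemble S-adenosylhomocysteine hydrolase, rose by 0.56 and fell by 0.35. MAT2A, which makes the donor, was at 11.56 and 11.67 and did not pass (adjusted p = 0.285 from limma).

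**Figure D3:**
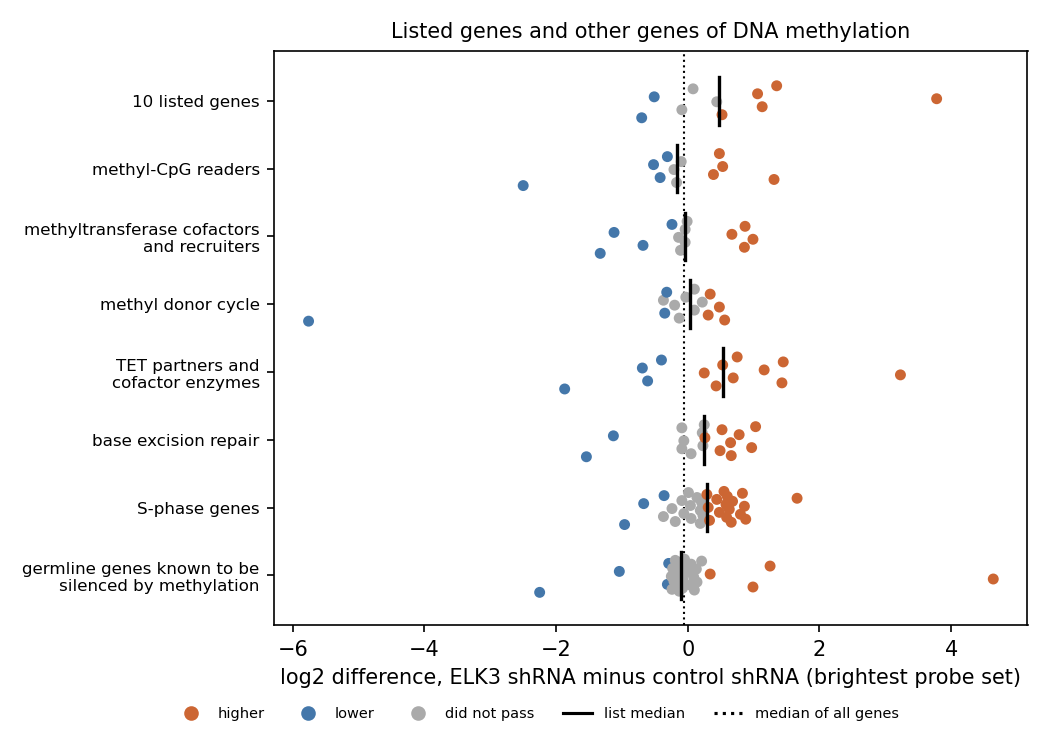
Log2 differences, ELK3 shRNA minus control shRNA (horizontal axis), of the 10 genes and of the genes of 7 lists (rows), each point a gene read from its brightest probe set and coloured by its call. Thick bars are list medians and the dotted line is the median of all genes at -0.05; the median of the 10 genes was 0.48, that of the S-phase genes 0.29, and that of the germline genes -0.10.

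Germline genes that promoter methylation is known to silence in somatic cells were looked at because they respond to a loss of methylation. Of 34 measured, 4 were higher, 4 lower and 26 did not pass, a smaller share called than the 49.5% of all genes. For 29 of the 34 both group means lay below the background guide, against 5895 of 18132 over all genes. Whether equally dim genes were called as seldom was not tested. TEX15, a gene of meiotic recombination and transposon silencing in the testis, read 3.01 and 3.20 in control arrays and 7.80 and 7.69 in ELK3 KD arrays. TKTL1, a transketolase relative, went from 4.47 to 5.72. MAGEB2 went from 5.56 to 3.31 and the piRNA factor gene MAEL from 4.35 to 3.31, in both cases with group means below the guide. The germ cell genes DAZL and DDX4 stayed below the guide in all 4 arrays, at 3.04 and 2.96 and at 3.38 and 3.24.
The genes whose pattern over the 4 arrays was nearest to that of TET1, by the root mean square difference after centring each gene, were LDHC, the lactate dehydrogenase of sperm (0.049), ERICH5 (0.062) and the growth factor receptor gene FGFR3 (0.10). LDHC read 3.72 and 4.27 in control arrays and 7.98 and 7.70 in ELK3 KD arrays. With 4 arrays in 2 groups, this likeness says little beyond a like size of difference.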

How the data were processed

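Total RNA of the 4 samples was labelled with biotin by an Affymetrix 3′ IVT kit per the labels, and the authors deposited log2 values made by RMA in Affymetrix Expression Console (version not given in the sources used here), that is, background-corrected, quantile-normalized and reduced to 1 value a probe set. The methods of the study name an Illumina BeadChip, but the labels and probe set names are Affymetrix's. RMA compresses low values, and quantile normalization would hide a change in total RNA per cell.

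Of 49395 probe sets, 102 controls were left out. Probe sets were named by the platform annotation, where 44988 named 1 gene. limma 3.58.1 (R 4.3.3; lmFit and eBayes, no block) was run over 49293 probe sets and, separately, over 18132 genes, each read from its brightest probe set, with Benjamini-Hochberg adjustment at 0.05 and no filter on dim probe sets. Every probe set of the 10 genes was described, with up to 4 genes of each list that had the largest called differences. Further genes were named outside this rule, among them DNMT3L, CDCA7, MAT2A, DAZL and DDX4, which were not called. The members and lists were chosen with earlier results of these data known. Alternatives were other probe set summaries, normalizations, variance priors, a filter, a replicate block, the methods' t-test, and each array left out in turn. Plots come from matplotlib 3.10.9 (Python 3.11.15).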

Additional observations from a re-analysis of the deposited data

How the results depend on the processing

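At their brightest probe sets, TET1, TDG, DNMT3B and DNMT1 kept direction and call under every alternative run for them. The methods' t-test with Benjamini-Hochberg adjustment called 5 of the 33 probe sets higher in place of 14, 3 genes higher in place of 5, and 10855 probe sets in all in place of 23801. At an unadjusted p under 0.05 that test called 20 of the 33 and 21386 in all. With adjustment, the t-test lost the calls of TET2 at 11725644_at (adjusted p = 0.0725) and of UHRF2 (adjusted p = 0.0744). It also lost those of TET1 at 11726931_a_at (adjusted p = 0.0539) and of TDG at 11746509_a_at (adjusted p = 0.0572). Further calls lost were those of DNMT3B at 11736975_a_at, 11738806_a_at, 11751190_x_at, 11752657_a_at and 11752658_x_at (t-test adjusted p = 0.0507 to 0.0948). Both DNMT3A probe sets called lower lost their calls as well (t-test adjusted p = 0.0521 and 0.252). With each array left out in turn, the probe sets called lower numbered 3 to 6 in place of 7, and the probe sets called in either direction over the whole array 13979 to 21325. The replicate numbers are shared by label only, and deviations of same-numbered arrays correlated at 0.013. With the replicate block, 14 probe sets were higher and 7 lower, as without it, 21578 were called in all, and no call of a named probe set changed.

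Differences near 0 changed sign without passing the test when single arrays were left out, with ranges of -0.21 to 0.02, -0.21 to 0.07 and -0.07 to 0.07 for the UHRF1 probe sets, -0.13 to 0.08 for the dim TET3, -0.05 to 0.06 for the dim TET2, -0.03 to 0.20 for the brightest DNMT3A, -0.42 to 0.21 for the dim TDG and -0.08 to 0.07 for the DNMT3B probe set 11762121_a_at. The dim TET2 probe set also turned, to -0.03, with arrays centred on the median. DNMT3A turned to -0.49, and passed, as the mean of its probe sets. The number of arrays and the background limit what can be seen at dim probe sets.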
